A study of Mus musculus with 12 samples.

Results

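The heat shock proteins of the cytosol and of mitochondria were followed in mouse liver, by selecting every non-control array probe whose gene name was one of 10 members or an older synonym of one. The members were Hsph1, Hspa1a, Hspa1b, Hspa8, Hspb1, Hsp90aa1, Dnaja1, Dnajb1, Hspd1 and Hspe1. Of these, 9 had a probe (18 probes of 41174), and 9 of the 21307 named genes on the array were therefore measured. No probe carried the name Hspa1b, and the probe of Hsph1 stood under its older name Hsp110. Each array held liver RNA of 1 male C57BL/6 mouse of 8-10 weeks, with 3 mice in each of 4 groups: HESKOL mice given dexamethasone, untreated HESKOL mice, wild-type (WT) mice given dexamethasone and untreated WT mice. All mice in the 4 groups had been adrenalectomized, which removes the endogenous glucocorticoids, and the treated mice received 1 mg/kg dexamethasone, a synthetic glucocorticoid, into the peritoneum 6 hours before the liver was taken. The labels do not spell out HESKOL or say which promoter or cell type drove the deletion, call these mice knockouts, and mention no vehicle injection for the untreated mice. Hes1, which the title of the series names together with glucocorticoid signaling, encodes a repressor of transcription.

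Heat shock proteins are chaperones: they bind unfolded or newly made proteins, keep them from clumping and help them to fold. Hsp70 proteins work in an ATP-driven cycle in which J-domain proteins (the Dnaj genes) bring clients and start ATP hydrolysis and Hsp110 proteins exchange the nucleotide, and Hsp90 takes over clients such as the unliganded glucocorticoid receptor to hold them ready for hormone. In mitochondria Hspd1 (Hsp60) forms a folding chamber that Hspe1 (Hsp10) closes. Many of these genes are induced by the heat shock factor HSF1, which binds arrays of the unit nGAAn in alternating orientation.

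Promoters of 4 members are shown because such elements are what the inducible heat shock genes are known to share. In RefSeq sequence of GRCm38.p6, windows from 250 bases before to 50 bases after a transcript start were held for 8 of the 10 members (13 windows, none for Hspa8 or Hsp90aa1). Both strands were searched for a pair of facing units, GAANNTTC or TTCNNGAA. Each of these is its own reverse complement, and 2 that overlap make 3 or more units in a row. A pair lay in a window of 7 of the 8 members (8 of 13 windows), against 15.1% of all 32851 promoter windows of the same length. Such runs occurred in windows of 3 members (Hsph1, Hspd1, Hspe1), against 0.603% of all windows, and a member could have several windows. The runs of Hspd1 and Hspe1 are the same stretch of DNA, and that of Hsph1 lies after the start of transcription. Neither Dnajb1 window held these letters. Capitals mark the heat shock elements in the following windows, Hspe1 on the plus strand of chr1:55087898-55088197, Hsph1 on the minus strand of chr5:149636266-149636565, Hspa1a on the minus strand of chr17:34972107-34972406 and Hspb1 on the plus strand of chr5:135887669-135887968.
Hspe1: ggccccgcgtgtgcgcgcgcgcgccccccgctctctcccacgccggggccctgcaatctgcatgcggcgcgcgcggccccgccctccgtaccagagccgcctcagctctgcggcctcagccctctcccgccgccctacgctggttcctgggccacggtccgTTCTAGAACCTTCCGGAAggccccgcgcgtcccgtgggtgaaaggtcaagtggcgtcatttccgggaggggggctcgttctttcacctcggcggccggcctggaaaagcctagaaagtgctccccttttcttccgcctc
Hsph1: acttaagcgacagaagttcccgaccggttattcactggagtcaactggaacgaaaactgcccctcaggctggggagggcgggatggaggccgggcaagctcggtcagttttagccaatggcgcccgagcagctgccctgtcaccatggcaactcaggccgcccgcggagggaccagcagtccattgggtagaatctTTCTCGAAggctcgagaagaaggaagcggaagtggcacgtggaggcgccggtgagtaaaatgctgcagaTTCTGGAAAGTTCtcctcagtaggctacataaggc
Hspa1a: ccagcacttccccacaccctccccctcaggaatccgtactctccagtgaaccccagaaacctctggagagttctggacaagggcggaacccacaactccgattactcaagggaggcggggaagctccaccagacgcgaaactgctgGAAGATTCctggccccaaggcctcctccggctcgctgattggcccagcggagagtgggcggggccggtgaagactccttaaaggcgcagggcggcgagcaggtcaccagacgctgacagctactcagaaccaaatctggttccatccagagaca
Hspb1: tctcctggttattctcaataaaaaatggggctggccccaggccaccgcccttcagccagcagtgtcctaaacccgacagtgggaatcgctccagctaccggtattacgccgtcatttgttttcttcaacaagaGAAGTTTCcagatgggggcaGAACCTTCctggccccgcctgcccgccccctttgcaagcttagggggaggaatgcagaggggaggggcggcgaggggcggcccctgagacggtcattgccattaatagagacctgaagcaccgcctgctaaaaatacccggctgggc

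Hspd1 and Hspe1 lie head to head on chromosome 1, and their annotated spans share 96 bases. The same run of elements, which lies outside these shared bases, appears, read from the other strand, in the Hspd1 window at chr1:55087883-55088182. The other Hspd1 window, at chr1:55088194-55088493, held no element. In the window of Hspe1 71 bases separate the run from the start of transcription. The single element of Hspa1a lay 96 bases before the start. The Hspa1b window held the same element at the same place and equalled that of Hspa1a at 296 of 300 positions. The elements of Hspb1 and Dnaja1 nearest to the start lay 89 and 116 bases before it. The half-site pair ACANNNTGT of the glucocorticoid receptor, also searched on both strands, was in no member's window and in 6.85% of all windows, and TATAAA was in no member's window and in 13.6% of all windows. A match of letters is a description of the window and not a binding site.

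A log2 level here is the log2 signal of a probe minus the array's 75th percentile of that value, and a log2 change is a difference of 2 group means of such levels, given with a standard error (SE). The 9 measured members were each well above background on all 12 arrays through the probe that stood for the gene, the brightest of its probes, and no member probe was saturated. Levels of different members are not set against each other, because each probe has its own brightness. All 9 passed the filter on dim probes, among 18688 genes and unnamed probes tested of 27751. Changes were tested with limma on all 12 arrays, and a change was called where the Benjamini-Hochberg adjusted p was under 0.05. The 6 comparisons share samples: the 2 dexamethasone effects enter their mean and their difference.

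The arrays differed in ways that touch the members. Hes1 checks the genotype labels: its log2 level was -3.08, -3.02 and -3.85 in treated HESKOL livers, against -1.16, -2.57 and -2.92 in treated WT livers. It was -2.46, -2.40 and -3.09 in untreated HESKOL livers, against -1.49, -1.22 and -1.90 in untreated WT livers. HESKOL arrays were below WT arrays without overlap in both pairs, but whether the probe lies in the deleted part is not given in the sources used here. WT dexamethasone replicate 1 stood apart. Its root mean square deviation over all genes from the mean of the rest of its group was 0.994. On the other 11 arrays this deviation was 0.463 to 0.798. On the first principal component (38.4% of the variance) WT dexamethasone replicate 1 lay at -35.8. That is among the untreated arrays (-74.0 to -7.96) and not the other treated ones (29.7 to 86.2). The glucocorticoid receptor targets on this array were as high as on the other WT treated arrays. Results are therefore given with and without it. The arrays were on 3 slides of 4, each scanned as 1 unit, and no slide held treated and untreated livers of 1 genotype. All 7 hepatocyte markers with a probe were well above background on every array.

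With dexamethasone, all 9 measured heat shock protein genes had a higher mean than without it, in HESKOL and in WT liver, but no single change passed the test within a genotype. The median log2 change of the 9 was 0.43 in HESKOL liver, against -0.003 over all genes tested, and 0.62 in WT liver, against -0.02 over all genes tested. The HESKOL median depended on the processing: it was 0.17 with quantile normalization, 0.17 with normexp and quantile normalization and 0.16 with slide as a fixed block, and the WT median was 0.29 with the unscaled deposited table, where the median of all genes was -0.35. Averaged over both genotypes the median was 0.61, and 1 of the 9, Hspa8, rose past the threshold. Of all genes tested, 3.62% were called higher in HESKOL liver, 0.161% in WT liver and 5.28% in the average, so the members' counts of 0, 0 and 1 of 9 are near the background. The share of all genes with a positive change was 49.8% in HESKOL liver and 47.9% in WT liver. At an unadjusted p under 0.05, limma gave 1 member in HESKOL liver and 4 in WT liver, with 4603 and 2199 of all genes. The 7 hepatocyte markers with a probe had medians of similar size. In HESKOL liver 6 of 7 were positive (median 0.66, from -1.54 to 1.40, 2 rose and 1 fell). In WT liver 7 of 7 were positive (median 0.41, from 0.04 to 1.49, 0 called). The hepatocyte list shares Tat with the list of glucocorticoid receptor targets. The part of these markers in the members' changes was not tested. The levels on each array are plotted by group.

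**Figure D1:**
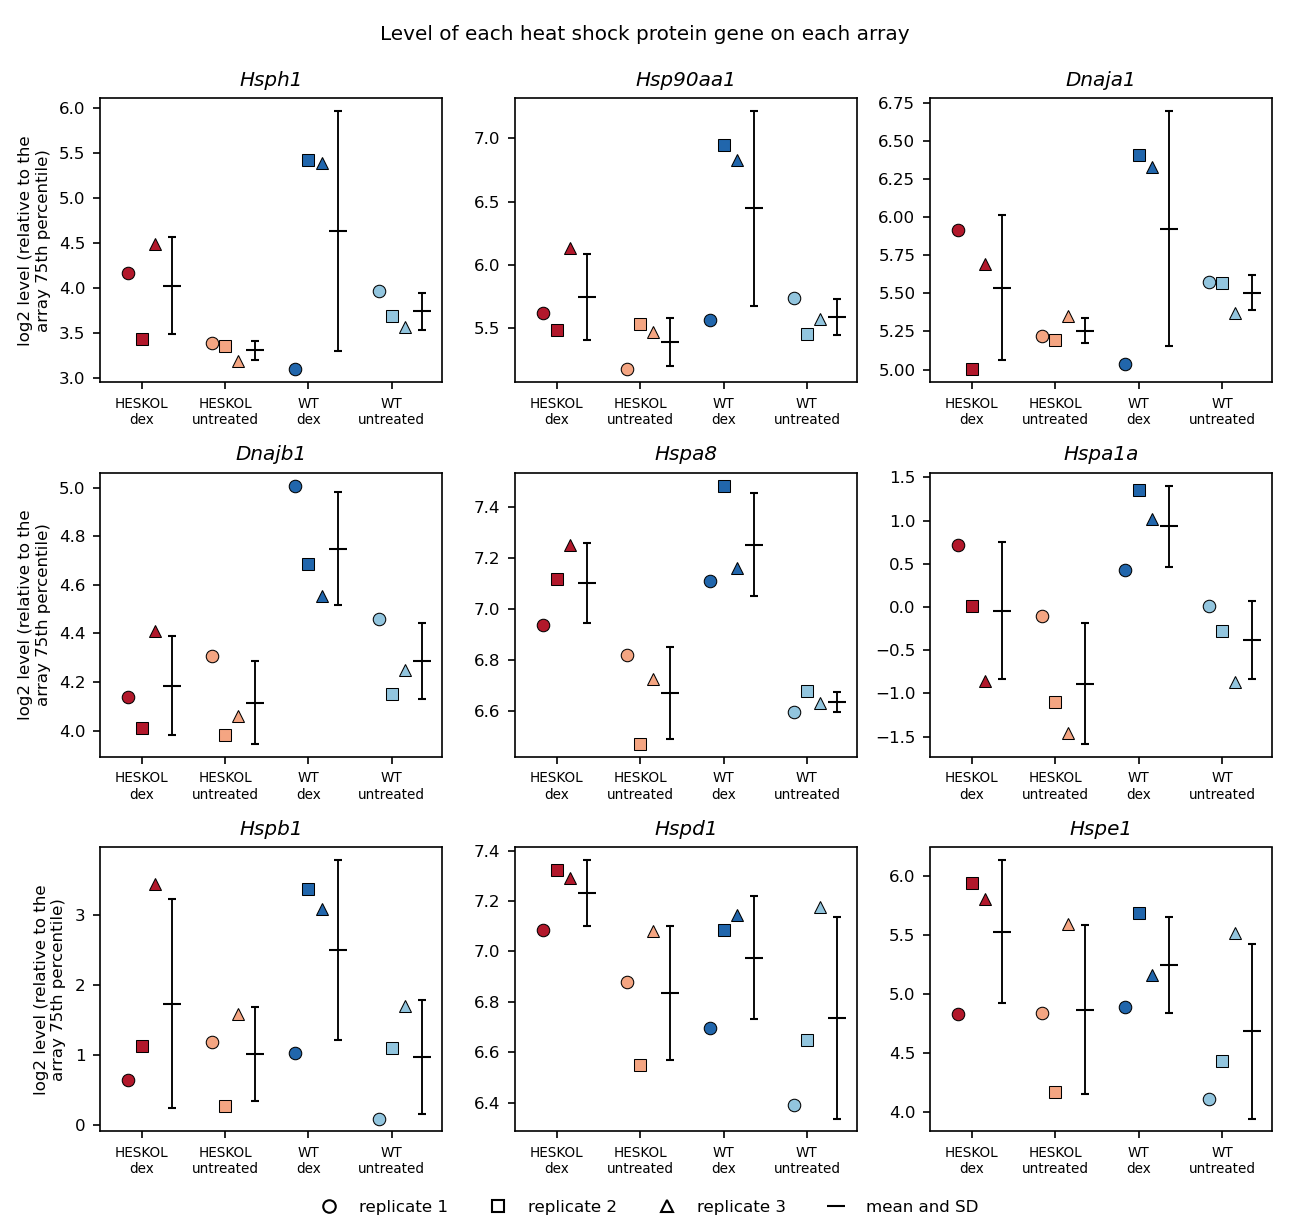
Log2 level of each of the 9 measured heat shock protein genes (y axis, relative to the 75th percentile of the array) on each of 12 arrays, by group, with the mean and SD of 3 arrays beside the points. WT dexamethasone replicate 1 (dark blue circle) lies below the other WT treated arrays for every gene but Dnajb1, where it lies above them.

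Hsph1, the Hsp110 protein that releases ADP from Hsp70, had a log2 level of 4.16, 3.43 and 4.49 in treated HESKOL livers, against 3.38, 3.35 and 3.18 in untreated HESKOL livers. The HESKOL groups did not overlap, though replicate 2 of the treated livers was just above the highest untreated one. In WT livers Hsph1 stood at 3.09, 5.42 and 5.39 with dexamethasone, against 3.97, 3.68 and 3.56 without it. Here 2 treated livers were above, and replicate 1 below, every untreated one. The changes were 0.72 (SE 0.53, adjusted p = 0.438) in HESKOL liver and 0.90 (SE 0.53, adjusted p = 0.547) in WT liver.

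Hspa8, the constitutive Hsp70 of the cytosol, was the member with the tightest replicates on the probe that stood for the gene. It stood at 6.94, 7.12 and 7.25 in treated HESKOL livers, against 6.82, 6.47 and 6.73 in untreated HESKOL livers. In WT livers the levels were 7.11, 7.48 and 7.16 with dexamethasone, against 6.60, 6.68 and 6.63 without it. Treated and untreated arrays did not overlap in either genotype on this probe. The log2 change was 0.43 (SE 0.19, adjusted p = 0.191) in HESKOL liver and 0.62 (SE 0.19, adjusted p = 0.242) in WT liver. Averaged over the genotypes Hspa8 rose by 0.52 on the log2 scale (1.44-fold, SE 0.13, adjusted p = 0.0314 with limma). That call is close to the threshold: it was lost on leaving out any of 9 of the 12 arrays (its adjusted p then lay between 0.0526 and 0.0789), and quantile normalization brought the change to 0.29 (adjusted p = 0.203). Over every alternative tried its adjusted p ran from 0.0141 to 0.979. The mean changes of the 2 probes of Hspa8 were 0.43 and 0.60 in HESKOL liver and 0.62 and 0.81 in WT liver. On the second probe the HESKOL groups overlapped: treated replicate 2 (5.60) was below untreated replicates 1 and 2 (5.92 and 5.88). The WT groups did not overlap on it. Its SD within groups was 0.29 to 0.63, against 0.04 to 0.20 on the brightest probe. The array design places both probes on chromosome 5 although RefSeq places the gene on chromosome 9.

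Hspa1a encodes the Hsp70 that is made on stress. Its log2 level was 0.72, 0.01 and -0.86 in treated HESKOL livers, against -0.11, -1.09 and -1.45 in untreated HESKOL livers. In WT livers it was 0.43, 1.35 and 1.02 with dexamethasone, against 0.02, -0.28 and -0.87 without it. The WT groups did not overlap and the HESKOL groups did. The change was 0.84 (SE 0.46, adjusted p = 0.283) in HESKOL liver, 1.31 (SE 0.46, adjusted p = 0.304) in WT liver and 1.08 (2.11-fold, SE 0.32, adjusted p = 0.053) in the average. With quantile normalization Hspa1a and not Hspa8 was called in the average (adjusted p = 0.0488), and likewise with normexp and quantile normalization (adjusted p = 0.0413, against 0.0908 for Hspa8).

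Hspa1a and its neighbour Hspa1b encode nearly the same protein, and the array does not separate them fully. Of the 4 Hspa1a probes, 2 list the Hspa1a transcript alone, among them the one that stood for the gene (chr17:33066911-33066970 of mm7, minus strand). The other 2 also list the Hspa1b transcript, and their sequences are given to show what was hybridised, the upstream one at chr17:33068671-33068730 and the downstream one at chr17:33067263-33067322 of mm7, both on the minus strand.
Hspa1a and Hspa1b, upstream probe: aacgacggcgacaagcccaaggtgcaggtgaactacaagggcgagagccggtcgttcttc
Hspa1a and Hspa1b, downstream probe: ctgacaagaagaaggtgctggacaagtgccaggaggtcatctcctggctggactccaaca

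The 2 probes of Hspa1a alone changed by 0.84 and 0.88 with dexamethasone in HESKOL liver and by 1.31 and 1.41 in WT liver. The downstream probe of both genes changed by 0.13 in HESKOL liver and 0.68 in WT liver, and the upstream one by 0.06 and 0.73, where the HESKOL value rests on a replicate 3 of the untreated livers that was not well above background. The upstream probe varied most between arrays of 1 group: its signal was 243 and 350 units in untreated HESKOL replicates 1 and 2 but 7.90, not well above background, in replicate 3, and 396 and 312 units in untreated WT replicates 1 and 2 but 11.4 in replicate 3. Values of Hspa1a below are those of the probe that lists Hspa1a alone.

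Other members with several probes also showed differences between them. For 5 members with an upstream and a downstream probe (Hspa1a, Hspa8, Dnaja1, Dnajb1, Hspd1), the log2 ratio of the upstream to the downstream signal was centred on its mean over the arrays; the upstream probe of Hspa1a is the one that also lists Hspa1b. The median over the 5 was 0.31, -0.52 and -0.07 in treated HESKOL livers, against 0.11, 0.21 and -0.40 in untreated HESKOL livers. It was -0.05, -0.09 and 0.27 in treated WT livers, against 0.33, 0.21 and -0.63 in untreated WT livers. HESKOL dexamethasone replicate 2 and replicate 3 of both untreated groups had the lowest values, and no group had only low ones. The part of this ratio in the members' changes was not tested. An Hspb1 probe not above background on any array was left out of these pairs after its values were seen.

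**Figure D2:**
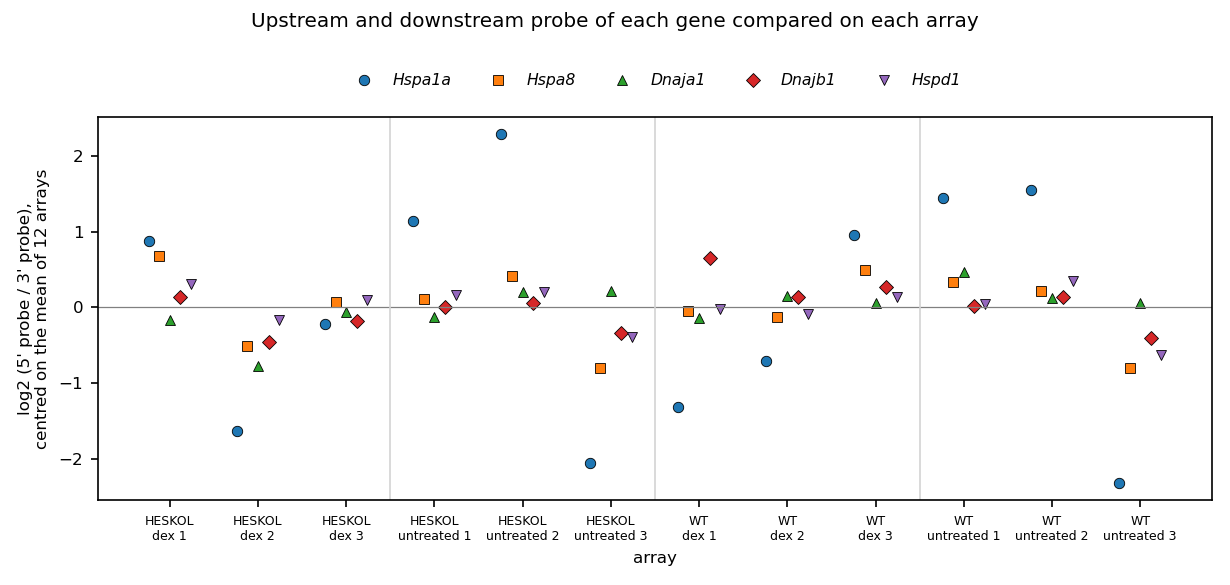
Log2 ratio of an upstream (5′) to a downstream (3′) probe of the same gene (y axis, centred on the mean of 12 arrays) on each array, for 5 heat shock protein genes. Hspa1a spans the widest range, and HESKOL dex 2, HESKOL untreated 3 and WT untreated 3 have medians of -0.52, -0.40 and -0.63.

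Hsp90aa1 encodes the stress-inducible Hsp90 of the cytosol. It stood at 5.62, 5.49 and 6.13 in treated HESKOL livers, against 5.18, 5.53 and 5.47 in untreated HESKOL livers. In WT livers it stood at 5.56, 6.95 and 6.83 with dexamethasone, against 5.74, 5.45 and 5.57 without it. As for Hsph1, WT treated replicates 2 and 3 were far above the rest. Replicate 1 lay within the range of the untreated WT livers, whereas for Hsph1 it lay below them. The change was 0.36 (SE 0.34, adjusted p = 0.56) in HESKOL liver and 0.86 (SE 0.34, adjusted p = 0.361) in WT liver.

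Both J-domain members supply clients to Hsp70. Dnaja1 stood at 5.92, 5.0 and 5.70 in treated HESKOL livers, against 5.22, 5.20 and 5.35 in untreated HESKOL livers, and at 5.04, 6.41 and 6.33 in treated WT livers, against 5.57, 5.57 and 5.37 in untreated WT livers. Like Hsph1, it was lowest of its treated group in HESKOL replicate 2 and in WT replicate 1. On the other 2 probes of Dnaja1, HESKOL treated replicate 2 (3.99 and 2.20) was near replicate 3 (3.98 and 2.20). Its changes were 0.28 (SE 0.35) and 0.42 (SE 0.35) for the brightest of 3 probes, and 0.72 to 0.77 in HESKOL liver and 0.62 in WT liver for the other 2 probes. Dnajb1 stood at 4.14, 4.01 and 4.41 in treated HESKOL livers, against 4.31, 3.98 and 4.06 in untreated HESKOL livers. In WT livers Dnajb1 stood at 5.01, 4.68 and 4.55 with dexamethasone, against 4.46, 4.15 and 4.25 without it. WT treated replicate 1, the lowest WT array for Hsph1 and Dnaja1, was the highest of all 12 arrays for Dnajb1. The Dnajb1 change was 0.07 (SE 0.21, adjusted p = 0.867) in HESKOL liver and 0.46 (SE 0.21, adjusted p = 0.414) in WT liver. On the second probe of Dnajb1 it was -0.006 in HESKOL liver and 0.90 in WT liver.

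Hspb1 encodes a small heat shock protein, an ATP-independent holder of unfolded proteins. Its level was 0.64, 1.13 and 3.44 in treated HESKOL livers, against 1.19, 0.27 and 1.58 in untreated HESKOL livers. In WT livers it was 1.03, 3.38 and 3.09 with dexamethasone, against 0.09, 1.10 and 1.70 without it. Of the 6 treated livers 3 were above 3 and the other 3 stayed among the untreated ones, which gave Hspb1 the widest error of the members. The change was 0.72 (SE 0.79, adjusted p = 0.617) in HESKOL liver and 1.54 (SE 0.79, adjusted p = 0.489) in WT liver. Without HESKOL dexamethasone replicate 3 the HESKOL change was -0.13.

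Through the probe that stood for each gene, both genes of the mitochondrial pair were high and low on much the same arrays. Hspd1 stood at 7.08, 7.32 and 7.29 in treated HESKOL livers, against 6.88, 6.55 and 7.08 in untreated HESKOL livers, which did not overlap although the gap was under 0.01. In WT livers Hspd1 stood at 6.70, 7.09 and 7.15 with dexamethasone, against 6.39, 6.65 and 7.17 without it. Hspe1 stood at 4.83, 5.94 and 5.81 in treated HESKOL livers, against 4.84, 4.17 and 5.60 in untreated HESKOL livers, and at 4.89, 5.69 and 5.16 in treated WT livers, against 4.10, 4.43 and 5.52 in untreated WT livers. On these probes replicate 3 of each untreated group was high for both genes. The changes were 0.40 (SE 0.25) and 0.24 (SE 0.25) for Hspd1 and 0.66 (SE 0.46) and 0.56 (SE 0.46) for Hspe1, in HESKOL and in WT liver, with adjusted p of 0.353 and 0.761 for Hspd1 and 0.414 and 0.681 for Hspe1. No difference between the genotypes in the response of the pair was detectable, with 95% intervals from -0.61 to 0.93 for Hspd1 and from -1.35 to 1.54 for Hspe1. On the second probe of Hspd1, replicate 3 was not the highest of either untreated group. It stood at 3.47 in untreated HESKOL livers, against 3.83 and 3.54, and at 3.34 in untreated WT livers, against 3.23 and 3.78. The second probe changed by 0.49 with dexamethasone in HESKOL liver and by 0.33 in WT liver.

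Groups that did not overlap were counted over all members, through the probe that stood for each gene. Treated and untreated arrays were separate for 3 of 9 members in HESKOL liver (Hsph1, Hspa8, Hspd1), against 34.3% of all genes in either direction, and for 3 of 9 in WT liver (Hspa1a, Hspa8, Dnajb1), against 12.1% of all genes. The HESKOL count was thus near its background.

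One array decided the WT counts. Without WT dexamethasone replicate 1, 2 members rose in WT liver: Hsph1 by 1.67 (SE 0.29, adjusted p = 0.0129 with limma) and Hsp90aa1 by 1.30 (SE 0.23, adjusted p = 0.0142), where 2.55% of all genes were called higher. In the average over genotypes 5 members then rose, against 10.0% of all genes: Hsph1 by 1.19, Hspa1a by 1.20, Hspa8 by 0.56, Hsp90aa1 by 0.83 and Dnaja1 by 0.57. More genes were then called over the whole array: 1120 against 37 with every array in WT liver, 2794 against 1462 in HESKOL liver and 4309 against 2201 in the average. On the array left out, the median level of the 9 members, each centred on its mean over the arrays, was -0.23, against 0.85 and 0.77 on the other WT treated arrays. The same median over 12 immediate early genes, which transcription factors such as Fos and Egr1 belong to, was 3.65 there against 0.09 and 0.97, and that over 14 chaperones of the endoplasmic reticulum (ER) was -0.08 against 0.92 and 0.99. The medians of 11 glucocorticoid receptor targets were 0.94 there and 0.90 and 1.12 on the other 2. The part of these lists in the members' values on this array was not tested.

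**Figure D3:**
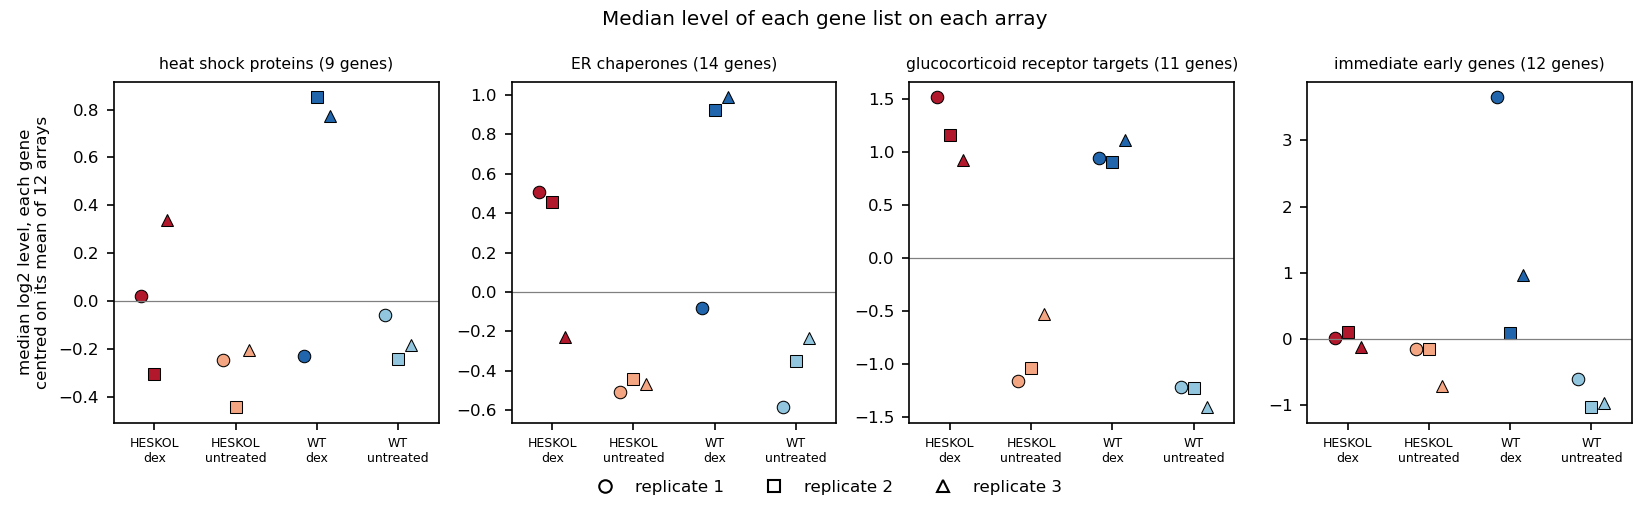
Median log2 level of 4 gene lists (y axis, each gene centred on its mean of 12 arrays) on each array, by group. WT dexamethasone replicate 1 (dark blue circle) lies at -0.23 for the heat shock proteins, at 0.94 for the receptor targets and at 3.65 for the immediate early genes.

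Slide was a second limit on the dexamethasone results. With slide as a fixed block no member and no gene was called for dexamethasone, and the sign turned in HESKOL liver for Hsph1 (-0.37, SE 0.99), Hspb1 (-0.08, SE 1.59), Hsp90aa1 (-0.32, SE 0.65) and Dnaja1 (-0.34, SE 0.69). With slide as a random block (correlation within slides -0.06), Hspa8 and Hspa1a were called in the average. No slide could give a value within itself for dexamethasone.

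No member was called between untreated HESKOL and untreated WT livers. Of 9 members 4 had a positive log2 change of HESKOL over WT, the median was -0.17 (0.04 over all genes), and limma called 0 of 9 members and 0% of all genes, with 0 members and 297 genes at an unadjusted p under 0.05. The members' changes lay between -0.51 (Hspa1a, 95% interval -1.51 to 0.50) and 0.18 (Hspe1, -0.84 to 1.20), so differences of such sizes were not detectable with 3 arrays. Hsph1 and Dnaja1, through the probe that stood for the gene, were lower on every untreated HESKOL array than on every untreated WT array. The changes were -0.43 (SE 0.53) and -0.25 (SE 0.35), against 6.37% of all genes whose groups did not overlap in either direction. On the other probes of Dnaja1 the groups overlapped, with changes of -0.21 and -0.13. Within slide 1, which held 1 untreated HESKOL and all 3 untreated WT arrays, 3 of 9 members were lower in HESKOL (Hsph1, Hsp90aa1, Dnaja1), and the median difference was 0.14.

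After dexamethasone, 7 of the 9 members had a lower mean in HESKOL than in WT liver, and none was called. The median log2 change was -0.56 (0.04 over all genes), against 1.14% of all genes called in either direction. That median rested on single arrays: it was -0.22 without WT dexamethasone replicate 2, -0.23 without WT dexamethasone replicate 3 and -0.31 without HESKOL dexamethasone replicate 2, and -0.83 without WT dexamethasone replicate 1. The exceptions were the mitochondrial pair, Hspd1 at 0.26 (95% interval -0.29 to 0.80) and Hspe1 at 0.28 (-0.74 to 1.30). Hspa1a had the largest difference, -0.98 (SE 0.46, adjusted p = 0.33), followed by Hspb1 at -0.77 (SE 0.79), Hsp90aa1 at -0.70 (SE 0.34, adjusted p = 0.35) and Hsph1 at -0.61 (SE 0.53). Dnajb1 alone had groups that did not overlap (-0.56, SE 0.21, adjusted p = 0.218), against 18.2% of all genes. The second probe of Dnajb1 differed by -1.08. Dnaja1 differed by -0.39 on its brightest probe and by -0.06 and -0.03 on its others.

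Without WT dexamethasone replicate 1, Hsph1 (-1.38, SE 0.29, adjusted p = 0.0407) and Hsp90aa1 (-1.14, SE 0.23, adjusted p = 0.0376) were called lower in HESKOL than in WT liver, against 0.912% of all genes called lower. The WT group then held 2 arrays. Within slide 3, which held all 3 treated HESKOL arrays and WT dexamethasone replicate 3, the difference was -1.36 for Hsph1, -1.08 for Hsp90aa1, -1.36 for Hspb1 and -1.07 for Hspa1a, and 7 of 9 members were lower in HESKOL, with 1 WT array and no test. The plot of changes sets these values beside each other.

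**Figure D4:**
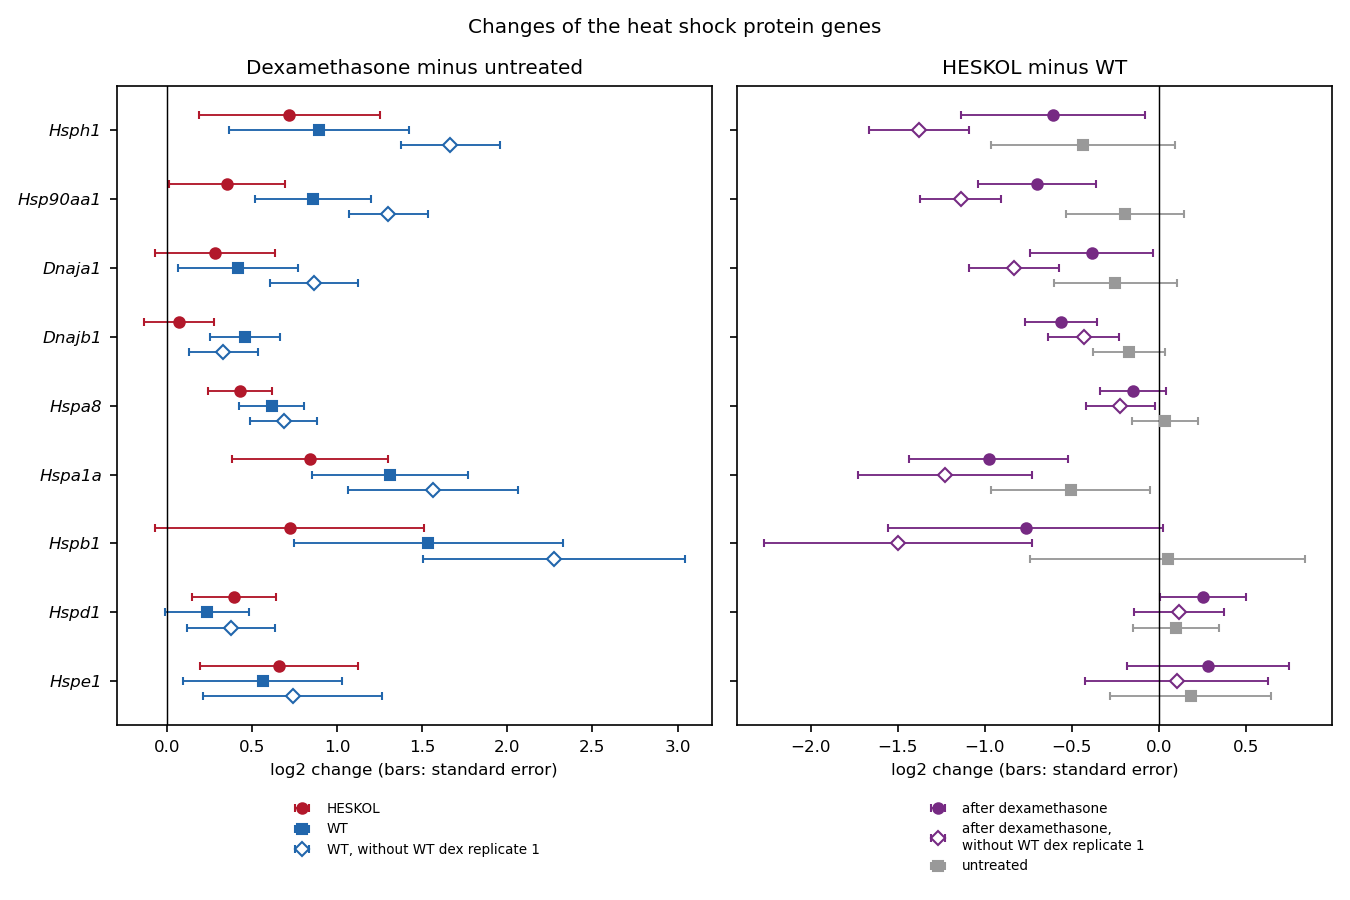
Log2 changes (x axes, bars are SE) of the 9 heat shock protein genes, dexamethasone minus untreated in each genotype on the left and HESKOL minus WT on the right, with open diamonds for fits without WT dexamethasone replicate 1. Leaving that array out moves Hsph1 to 1.67 in WT liver and to -1.38 between the treated genotypes.

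The genotype difference seen after dexamethasone was not shown to be a difference in response. The test of the difference between the dexamethasone effects (HESKOL minus WT) called 0 of 9 members and 0.0161% of all genes, with 0 members and 1242 genes at an unadjusted p under 0.05. Its members' median was -0.19, and 7 of 9 were negative, from -0.82 for Hspb1 (SE 1.12) to -0.14 for Dnaja1 (SE 0.50). For Hsph1 it was -0.17 (95% interval -1.82 to 1.47), and without WT dexamethasone replicate 1 it was -0.95 (SE 0.39, adjusted p = 0.548).

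Among themselves the members fell into sets that moved together over the 12 arrays, given as a description because the arrays share groups and slides. Pearson's r over the 36 pairs ran from -0.12 to 0.95 with a median of 0.58, and 35 were above 0. Hsph1 went with Dnaja1 (r = 0.95, Spearman's rho = 0.90, r = 0.84 without the 2 arrays farthest from the median of Hsph1) and with Hsp90aa1 (0.94, 0.76 and 0.75). Hspd1, through the probe that stood for the gene, went with Hspe1 (r = 0.92, rho = 0.88, r = 0.85 without the 2 farthest arrays). After subtraction of group means these values of r were 0.94, 0.94 and 0.90. Dnajb1 went with none of these on that scale, at -0.29 with Hsph1 and -0.33 with Hspd1. The values for Hsph1 lean on the treated WT livers, where replicate 1 stood at 3.09 and the others at 5.42 and 5.39. In untreated HESKOL livers Hsph1 was lowest in replicate 3 (3.18), where Dnaja1 was highest (5.35). Whether the pairs with Hsph1 went together within each group was not tested. The non-member genes most like the mean of the scaled members over the 12 arrays were Vps37a (r = 0.95), Tekt4, Ankrd52, Kdm5c and Mlx (0.94 each).

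Related chaperone genes outside the 10 members were counted in the average over genotypes, beside 5.28% of all genes called higher. Of the Hsp70 and Hsp110 relatives 0 of 7 were called (median 0.28), with Hspa4 at 0.46 (adjusted p = 0.0623), and of the other J-domain proteins 0 of 10 were called (median 0.24). Among Hsp90 and its co-chaperones 2 of 18 rose (median 0.22), Fkbp5, a co-chaperone and receptor target, by 2.74 and Cdc37l1 by 1.25. Of the other heat-inducible genes 3 of 13 rose (median 0.42), Bag3, a nucleotide exchange factor for Hsp70, by 0.70, the small heat shock protein Hspb8 by 0.67 and the ubiquitin gene Ubb by 0.46. The BAG and heat shock factor list had 2 of 11 that rose, Bag3 and Bag5, and Hsf4 fell by 1.05 on the log2 scale. Hspb8 was the 1 of 7 small heat shock proteins that rose.

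In mitochondria Dnaja3, a J-domain partner of mitochondrial Hsp70, rose by 1.11 and was the 1 of 14 called (median 0.24), with Hspa9, that Hsp70 itself, at 0.40 (adjusted p = 0.118). Of the cytosolic chaperonin TRiC and prefoldin 1 of 14 rose, Cct3 by 0.74 (median 0.35). The ER chaperones had 8 of 14 that rose and a median of 0.82, among them Manf (1.49), Hspa5 (1.27), Hyou1 (1.09) and Dnajc3 (1.02). Receptor targets had 10 of 11 that rose (median 2.10), with Cdkn1a at 6.46 and Dusp1 at 2.40, and immediate early genes 5 of 12 (median 1.57). By genotype, 6 of 12 immediate early genes were positive in HESKOL liver (median 0.32) and 12 of 12 in WT liver (median 2.36), 1.67 without WT dexamethasone replicate 1, with 0 called in either on all arrays. Between treated HESKOL and WT livers the medians were -0.46 for the other heat-inducible genes, -0.37 for the ER chaperones and -1.53 for the immediate early genes, with none of these genes called. Without WT dexamethasone replicate 1 these medians were -0.67, -0.74 and -0.37, and 3, 1 and 1 genes were called lower in HESKOL.

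Without that array the counts of related genes called higher in the average were larger, except for small heat shock proteins, against 10.0% of all genes. They were 2 of 7 Hsp70 and Hsp110 relatives, 3 of 10 J-domain proteins, 8 of 18 of the Hsp90 list, 6 of 13 other heat-inducible genes, 3 of 11 of the BAG and heat shock factor list and 1 of 7 small heat shock proteins. Of the mitochondrial list 3 of 14 were called and of the chaperonin list 3 of 14. The counts were 10 of 14 ER chaperones, 11 of 11 receptor targets and 6 of 12 immediate early genes. Some genes, such as Bag3 and Hspb8, stand in more than 1 list.

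Markers of lymphocytes were lower on many treated arrays, though few passed the test, and those of other immune cells are given beside them. All 7 lymphocyte markers with a probe had a negative change with dexamethasone in HESKOL liver (median -1.5, 1 fell) and in WT liver (median -0.70, 0 called). The median centred level of these markers was -0.89 to -0.20 in treated HESKOL livers, against 0.53 to 0.87 in untreated HESKOL livers, and -1.21 to 0.90 in treated WT livers, against 0.22 to 0.44 in untreated WT livers. WT dexamethasone replicate 1 had the highest value, 0.90, and without it the WT median change was -1.44 and 2 of 7 fell, with 5 of 7 in HESKOL liver. From 4 to 7 of the 7 were well above background on every array, so none of the groups lacked them. Of 8 Kupffer cell and macrophage markers 1 was positive in HESKOL liver (median -0.88, 1 rose and 1 fell) and 2 in WT liver (median -0.27, 0 called). Neutrophil markers had 0 of 5 positive in HESKOL liver (median -2.35) and 3 of 5 in WT liver (median 0.53), with 0 called in either. Their centred level ran from -4.02 to 0.01 in treated HESKOL livers, against -2.26 to 2.80 in untreated HESKOL livers, and from -0.97 to 2.15 in treated WT livers, against -2.01 to 3.32 in untreated WT livers, so mice of 1 group differed by several log2 units. In whole liver, fewer cells of a type and less RNA per cell cannot be told apart, and the part of these markers in the members' changes was not tested.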

How the data were processed

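Liver RNA of 12 mice was labelled with Cy3 and hybridised to Agilent 1-colour arrays whose probes were designed on mm7, per the file headers. Signal intensity came from Feature Extraction 9.5.3.1, per the file headers (9.5 per the submitters' processing notes): the deposited processed signal is background-subtracted, and the deposited series table holds the same values. From each intensity (75th percentile 897 to 1614 per array, 62.2% to 72.3% of spots well above background) log2 was taken and the array's 75th percentile subtracted. Control and outlier spots were left out, the brightest probe stood for a gene, and probes well above background on all 3 arrays of 1 group or more were kept. limma 3.58.1 in R 4.3.3 fitted 4 group means (8 residual and 3.13 prior degrees of freedom), with Benjamini-Hochberg adjustment over 18688 features. The fit was tested on simulated data. No label says that the 3 mice of a group came from separate litters or days. The p-values set each change against the spread between arrays within groups, pooled over the 4 groups. In that spread, differences between mice cannot be separated from those between arrays and slides, and the number of mice limits the precision. Same-numbered samples of 2 groups deviated together (r over 0.1) in 6 of 18 pairs, so numbers were not taken as pairs. The members and gene lists were chosen with earlier results of these data known. All 9 measured members are named, and of other genes the members of the fixed lists with the lowest p and those most like the members in pattern. Alternatives were other normalizations, filters, probe rules, slide and replicate blocks, and leaving out each array.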

Additional observations from a re-analysis of the deposited data

How the results depend on the processing

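With each of the 12 arrays left out in turn, 607 of 648 member changes kept their direction and their side of the threshold, 22 reversed, 10 passed it and 9 lost it; under the other settings these were 537, 27, 6 and 6 of 576. Leaving out 1 array gave 0 to 2 members called in WT liver, 0 to 5 in the average over genotypes and 0 to 2 between treated genotypes, with the highest counts without WT dexamethasone replicate 1. The number of all genes called then ran from 362 to 2794 for dexamethasone in HESKOL liver, 11 to 1120 in WT liver, 1070 to 4309 in the average, 0 to 1 between untreated genotypes, 33 to 459 between treated genotypes and 0 to 13 for the difference of effects. In the average over genotypes, 2 members were called with array median scaling, with slide as a random block and with an intensity trend and robust estimation (Hspa8 and Hspa1a), 1 with quantile normalization and with normexp (Hspa1a in place of Hspa8), and 0 with the unscaled deposited table, with no filter on dim probes and with slide as a fixed block. All genes called numbered 339 between treated genotypes and 9 for the difference of effects with normexp and quantile normalization, and 390 and 0 with the unscaled table. With no filter they were 950 in HESKOL liver, 22 in WT liver, 1453 in the average and 106 between treated genotypes. With slide as a fixed block they were 0 in HESKOL liver, 0 in WT liver, 0 in the average, 3 between treated genotypes and 0 for the difference, and with slide as a random block 2399 in HESKOL liver and 7 for the difference. With only the compared groups in the fit they were 0 in WT liver and 8 between treated genotypes, and that setting has no value for the average and the difference of effects.

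Replicate numbers were not taken as pairs, and a block for them was an alternative. The replicate block gave 126 genes called between treated genotypes, an adjusted p of 0.05004 for Hspa8 in the average, which ended its call, and of 0.0376 for Hspa1a there, which passed.

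Changes that reversed were mostly close to 0. For dexamethasone, Dnajb1 in HESKOL liver was -0.057 with quantile normalization, -0.070 with normexp and -0.011 with the unscaled table, and Hspd1 in WT liver was -0.035 with normexp and -0.088 with the unscaled table. Between untreated genotypes Hspa8 was -0.020 with quantile normalization, -0.054 with median scaling, -0.0012 with normexp and -0.048 with the unscaled table, and Hspb1 was -0.041 with median scaling, -0.034 with the unscaled table and -0.86 with the mean of all its probes, of which 1 was not above background. Between treated genotypes Hspa8 was 0.010 with the unscaled table. For the difference of effects Hspe1 was -0.021 with quantile normalization, Hsph1, Hspa8 and Dnaja1 were 0.070, 0.058 and 0.11 with the unscaled table, and Hspb1 and Dnaja1 were 0.050 and 0.038 with the mean of all probes. With slide as a fixed block Hsph1, Hspb1, Hsp90aa1 and Dnaja1 in HESKOL liver were -0.37, -0.079, -0.32 and -0.34, Dnaja1 in the average was -0.092, Hspa1a and Dnajb1 between untreated genotypes were 0.27 and 0.021, and Hspd1 for the difference was -0.053. With 1 array left out, the difference of effects ran from -0.58 to 0.13 for Dnaja1, -0.95 to 0.22 for Hsph1, -0.061 to 0.33 for Hspd1 and -0.32 to 0.46 for Hspe1. The untreated genotypes then differed by -0.037 to 0.14 for Hspa8, -0.39 to 0.42 for Hspb1, -0.076 to 0.32 for Hspd1 and -0.18 to 0.60 for Hspe1, and the HESKOL dexamethasone change was -0.13 to 1.27 for Hspb1 and -0.042 to 0.17 for Dnajb1. The median change of all genes was 0.10 with median scaling in HESKOL liver, and with the unscaled table -0.35 in WT liver, -0.21 in the average, 0.20 between treated genotypes and 0.25 for the difference. The cause of these shifts was not tested.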
